A study of Mus musculus with 8 samples.

Results

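Etv2 and 9 ETS transcription factors of blood cells (Fli1, Erg, Ets1, Ets2, Elk3, Etv6, Elf1, Gabpa and Spi1) were followed across 8 expression arrays of sorted mouse bone marrow cells. The 10 genes were taken by symbol from the probe annotation, which gave 17 of the 55661 distinct probes measured. Spi1 carries its older name Sfpi1 there and was matched through that name and its transcript. All 17 probes were well above background on at least 2 arrays and were tested with 32354 probes in all.

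The 4 groups held 2 arrays each: KSL cells from Vav-Etv2 mice, KSL cells from control mice, Gr cells from Vav-Etv2 mice and Gr cells from control mice. KSL is the usual abbreviation for marrow cells that carry Kit and Sca-1 and lack lineage markers, a fraction that contains the stem and early progenitor cells of blood. Gr cells were sorted as Gr-1+ and Mac-1+, surface markers of granulocytes. In Vav-Etv2 mice an Etv2 transgene is switched on by a second transgene, Vav-iCre, a Cre recombinase driven by the Vav regulatory elements, which work in blood cells from the stem cell onwards. The genotype of the control mice is given only as control, so whether they carry 1 of the transgenes is not known. All mice were 6 weeks old, of a mixed background that included B6/CBA. The labels do not tell whether an array stands for 1 animal or a pool, so every p below measures only the spread between these samples, with n = 2 per group.

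ETS factors share a DNA-binding domain, the ETS domain, that recognises a short core motif, and they differ mostly outside it. Etv2 acts for a brief time in the embryo, where it directs mesoderm cells to endothelial and blood fates, and it is low or silent in most adult blood cells. Fli1 and Erg keep blood stem cells and endothelium going, Spi1 (PU.1) is the master regulator of myeloid cells, and Gabpa, Elf1, Ets1, Ets2, Elk3 and Etv6 serve as activators or repressors in many blood lineages.

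Because the ETS domain is conserved, the probe sequences of the 10 genes were compared first. Among the 136 pairs of the 17 probes, the longest run of identical bases was 20, between probe 2 of Etv2 and probe 1 of Ets1. Both lie in sequence that codes for the ETS domain. The run is in capitals below. At the best alignment 37 of 50 bases matched, and the next longest run between 2 members was 9 bases. Probe 1 of Etv2 lies upstream in the transcript and shared no run of 15 bases or more with any other of the 55681 probe sequences on the array. The probe of Spi1 is shown because its positions in the files span an intron.
Etv2 probe 1: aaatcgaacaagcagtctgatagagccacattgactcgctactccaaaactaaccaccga
Etv2 probe 2: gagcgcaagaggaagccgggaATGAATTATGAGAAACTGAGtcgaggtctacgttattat
Ets1 probe 1: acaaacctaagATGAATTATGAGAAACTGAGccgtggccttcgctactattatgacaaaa
Spi1 probe 1: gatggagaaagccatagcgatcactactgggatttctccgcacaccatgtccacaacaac

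On build mm9, Etv2 probe 1 lies at chr7:31419633-31419692 and Etv2 probe 2 at chr7:31418776-31418835, both on the minus strand. They start at bases 655 and 847 of the transcript. Ets1 probe 1 lies at chr9:32561826-32561885 on the plus strand, and the Spi1 probe between chr2:90939665-90953452. Whether either Etv2 probe is part of the transgene cannot be told from the labels. Probe 1 stands for Etv2 below, and for every other gene the probe with the highest mean over the 8 arrays.

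Values are log2 signals relative to the 75th percentile of each array, so a level of 0 equals that percentile. The percentile itself ran from 136 to 301 signal units, the share of probes well above background from 47.7% to 55.5%, and no probe was saturated. Signals do not compare between probes, so levels are set only against the same probe on other arrays. The arrays of a group differed by an SD over all probes of 0.895 log2 in KSL Vav-Etv2 cells, 0.581 in KSL controls, 0.972 in Gr Vav-Etv2 cells and 1.04 in Gr controls. KSL samples lay on 1 row of the slide and Gr samples on the other, so slide row and cell type cannot be told apart. In bulk RNA, fewer cells of a type and less RNA per cell cannot be told apart either. By their medians the cell type markers followed the labels: that of 11 KSL markers ran from 2.25 to 3.75 in KSL cells and from -1.77 to -0.16 in Gr cells. Ly6a, which encodes the Sca-1 of the sort, ran the other way, with 2.25 to 3.65 in KSL cells against 4.47 to 6.33 in Gr cells. It was called lower in KSL than in Gr cells with Vav-Etv2 (difference -2.74, limma adjusted p = 0.0414) and not in controls (difference -1.70, limma adjusted p = 0.122). The median of 12 Gr markers ran from 2.47 to 6.65 in KSL cells and from 9.22 to 10.13 in Gr cells. KSL Vav-Etv2 1 stood apart with the 2.47, against 6.37 to 6.65 on the other KSL arrays.

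Etv2 had the largest genotype difference of the 10 genes in KSL cells. Probe 1 read 0.19 and -1.24 in KSL Vav-Etv2 1 and 2, against -4.37 and -4.73 in KSL controls 1 and 2. Both Vav-Etv2 arrays were well above background and neither control was. Because the controls give only a bound, the level was at least 12.4-fold higher in KSL Vav-Etv2 cells, and the fitted difference was 4.02 (SE 1.18, 95% interval 1.22 to 6.83, limma adjusted p = 0.489). The SE, interval and p rest on the spread within all 4 groups, Gr cells included. By probe 1 the SD of the arrays was 1.01 in KSL Vav-Etv2 cells and 0.26 in KSL controls. It was 0.53 in Gr Vav-Etv2 cells and 2.78 in Gr controls, which gave the largest part of that spread. A bound takes, for each control array, the higher of the probe's own value and the lowest level that counted as well above background. Probe 2 read 0.01 and -2.53 in KSL Vav-Etv2 cells, against -5.96 and -6.35 in KSL controls, at least 7.44-fold higher (difference 4.89, SE 1.54, limma adjusted p = 0.531). Neither probe passed the threshold of 0.05, and the groups did not overlap on either. Without KSL Vav-Etv2 1 the difference of probe 1 was 3.31 (at least 7.53-fold, limma adjusted p = 1.00), and without KSL Vav-Etv2 2 it was 4.74 (at least 20.3-fold, limma adjusted p = 0.325). For probe 2 the bound was 3.08-fold without KSL Vav-Etv2 1 and 18.0-fold without KSL Vav-Etv2 2. The folds also rest on the background correction of the deposited signals: normexp correction, which adds 50 signal units to every spot, gave differences of 1.63 for probe 1 (limma adjusted p = 0.603) and 1.47 for probe 2 (limma adjusted p = 0.927).

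In Gr cells Etv2 did not separate the labels. Probe 1 read -0.55 and -1.30 in Gr Vav-Etv2 1 and 2, against -4.48 in Gr control 1. In the array labelled Gr control 2 it read -0.55, level with Gr Vav-Etv2 1. Gr control 1 was not well above background, and the other 3 Gr arrays were. Probe 2 gave the same picture, with -2.33 and -1.88 in Gr Vav-Etv2 cells, against -5.81 in Gr control 1, again not above background, and -0.85 in the array labelled Gr control 2. The Etv2 signal of that array goes against its label, on both probes. In Gr control 1, the array in which Etv2 probe 2 was not above background, Ets1 probe 1 with its shared run of 20 bases read 3.50.

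The Gr difference of Etv2 under the labels was 1.59 (SE 1.18, 95% interval -1.22 to 4.40, limma adjusted p = 1.00). Set against Gr control 1 alone, Etv2 was at least 7.33-fold higher in Gr Vav-Etv2 cells by probe 1 and at least 3.23-fold higher by probe 2. Set against the array labelled Gr control 2 alone, the difference was -0.38 by probe 1 and -1.25 by probe 2. The effect in KSL cells minus the effect in Gr cells was 2.43 (SE 1.67, limma adjusted p = 1.00), and no ETS probe passed that test, with 0.00309% of all probes called. Dropping the array labelled Gr control 2 gave 0.46 (limma adjusted p = 0.886) and dropping Gr control 1 gave 4.40 (limma adjusted p = 0.842). The 2 Vav-Etv2 groups overlapped, and KSL minus Gr was 0.39 (SE 1.18, 95% interval -2.41 to 3.20, limma adjusted p = 0.824).

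**Figure D1:**
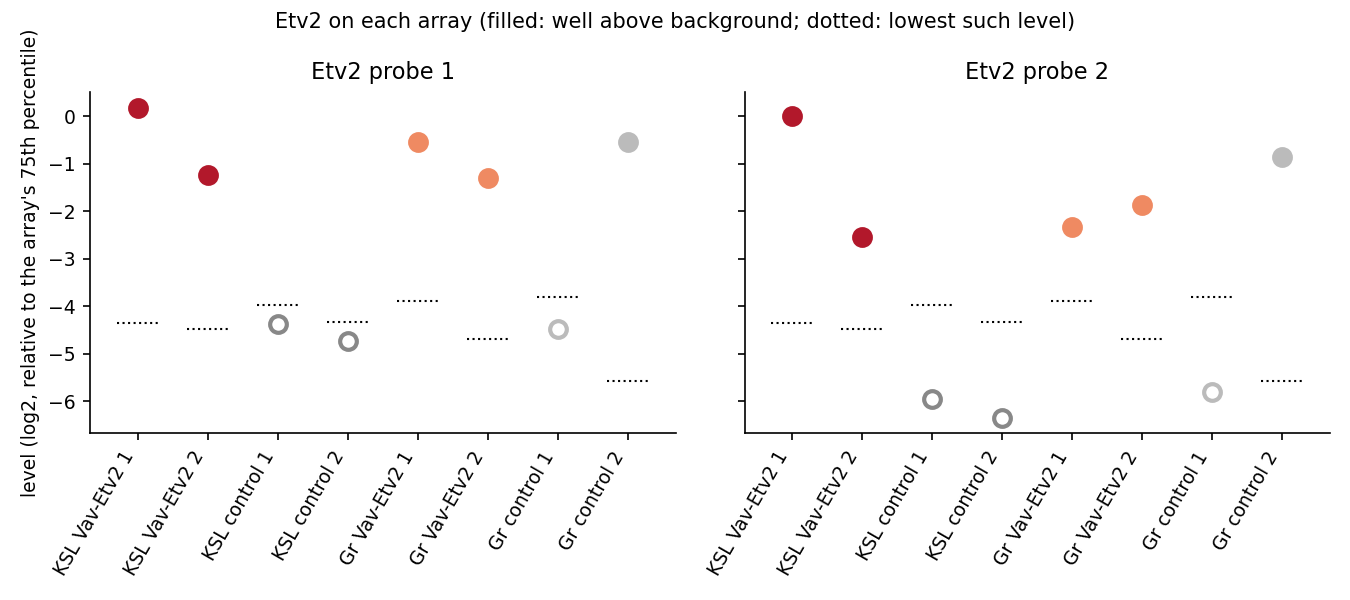
Level of the 2 Etv2 probes (log2, relative to the 75th percentile of the array) on each of the 8 arrays, filled where well above background and open where not, with a dotted line at the lowest level that counted as well above background on that array. Both probes are open in KSL controls 1 and 2 and in Gr control 1, and filled at -0.55 (probe 1) and -0.85 (probe 2) in the array labelled Gr control 2.

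None of the 17 ETS probes passed the threshold for Vav-Etv2 against control in KSL cells, where 0.00927% of all probes were called (3 of 32354). At an unadjusted p under 0.05 there were 2 of 17, the Etv2 probes, against 7.26% of all probes. Of the 10 genes, 8 had a positive and 2 a negative difference, with a median of 0.21 against 0.02 over all probes tested. The Vav-Etv2 and control arrays did not overlap for 6 of the 10 genes, against 51.2% of all probes, so separation of this kind is no result about these genes.

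Elk3, a repressor of the ternary complex factor type that is also found in endothelium, had the largest KSL difference after Etv2. Its probe 1 read 4.80 and 4.07 in KSL Vav-Etv2 cells, against 3.55 and 3.61 in KSL controls, a difference of 0.85 (SE 0.57, 95% interval -0.51 to 2.21, limma adjusted p = 0.926). Both Vav-Etv2 arrays lay above both controls, and the same held for its other 2 probes, whose differences were 0.51 and 1.05. The size leaned on 1 array: without KSL Vav-Etv2 1 the difference of probe 1 was 0.49, and without KSL Vav-Etv2 2 it was 1.21 (limma adjusted p = 0.751). That array was also the one with the highest endothelial markers, described with the gene lists below, and the part they play in the Elk3 value was not tested.

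Erg and Fli1, the pair most tied to stem cells, had differences of opposite sign, neither past the threshold. Erg read 1.11 and 1.64 in KSL Vav-Etv2 cells, against 2.02 and 2.14 in KSL controls. Both Vav-Etv2 arrays lay below both controls, with a difference of -0.71 (SE 0.66, 95% interval -2.27 to 0.85, limma adjusted p = 0.982). Its probe 2 gave -0.81, with -0.56 and 0.83 in KSL Vav-Etv2 cells against 0.88 and 1.01 in KSL controls. Fli1 read 3.21 and 2.90 in KSL Vav-Etv2 cells, against 2.82 and 3.01 in KSL controls, so the groups overlapped. Its difference was 0.14 (SE 0.31), and the 95% interval of -0.59 to 0.88 leaves room for a change of either sign.

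Spi1, the myeloid regulator, read 0.12 and 0.31 in KSL Vav-Etv2 cells, against -0.33 and -0.06 in KSL controls. Both Vav-Etv2 arrays were higher, by 0.41 on average (SE 0.33, 95% interval -0.37 to 1.19, limma adjusted p = 0.966). Elf1 read 3.73 and 3.93 in KSL Vav-Etv2 cells, against 3.58 and 3.60 in KSL controls, and its second probe did not separate the groups, with a difference of -0.04. Gabpa, the DNA-binding subunit of GABP, a regulator of housekeeping and mitochondrial genes, read 1.28 and 1.17 in KSL Vav-Etv2 cells, against 0.99 and 1.09 in KSL controls. These differences, 0.24 for Elf1 (SE 0.27) and 0.18 for Gabpa (SE 0.39), were within their error. Ets1, Ets2 and Etv6 overlapped between Vav-Etv2 and control KSL cells. Their differences were 0.08 (SE 0.60), 0.45 (SE 1.03) and -0.12 (SE 0.39).

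In Gr cells none of the 17 ETS probes passed for Vav-Etv2 against control either, with 0.00309% of all probes called (1 of 32354) and 0 of 17 at an unadjusted p under 0.05, against 1.31% of all probes. Differences were positive in 4 genes and negative in 6, with a median of -0.09 against -0.01 over all probes. Fli1 was the 1 gene of 10 whose groups did not overlap, against 12.2% of all probes. It read 3.78 and 3.85 in Gr Vav-Etv2 cells, against 4.43 (Gr control 1) and 3.95 (the array labelled Gr control 2), a difference of -0.38 (SE 0.31, 95% interval -1.11 to 0.36, limma adjusted p = 1.00). Leaving out the array labelled Gr control 2 gave -0.62 (limma adjusted p = 0.652). Spi1 read 2.66 and 2.41 in Gr Vav-Etv2 cells, against 3.18 (Gr control 1) and 2.55 (the array labelled Gr control 2). Its groups overlapped by a narrow margin, with a difference of -0.33 (SE 0.33), or -0.64 when the array labelled Gr control 2 was left out.

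The plot of genotype differences shows the width of the error for the remaining genes. Ets2 had the widest, with a Gr difference of -0.74 (95% interval -3.19 to 1.71). It was -2.02 when the array labelled Gr control 2 was left out and 0.53 when Gr control 1 was. Leaving out 1 control sets both Gr Vav-Etv2 arrays against 1 replicate number. Within replicate numbers the Ets2 difference was -0.76 and -0.72. Erg, Etv6 and Elf1 differed by 0.02, 0.02 and -0.03 under the labels, and their sign turned with the array left out.

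**Figure D2:**
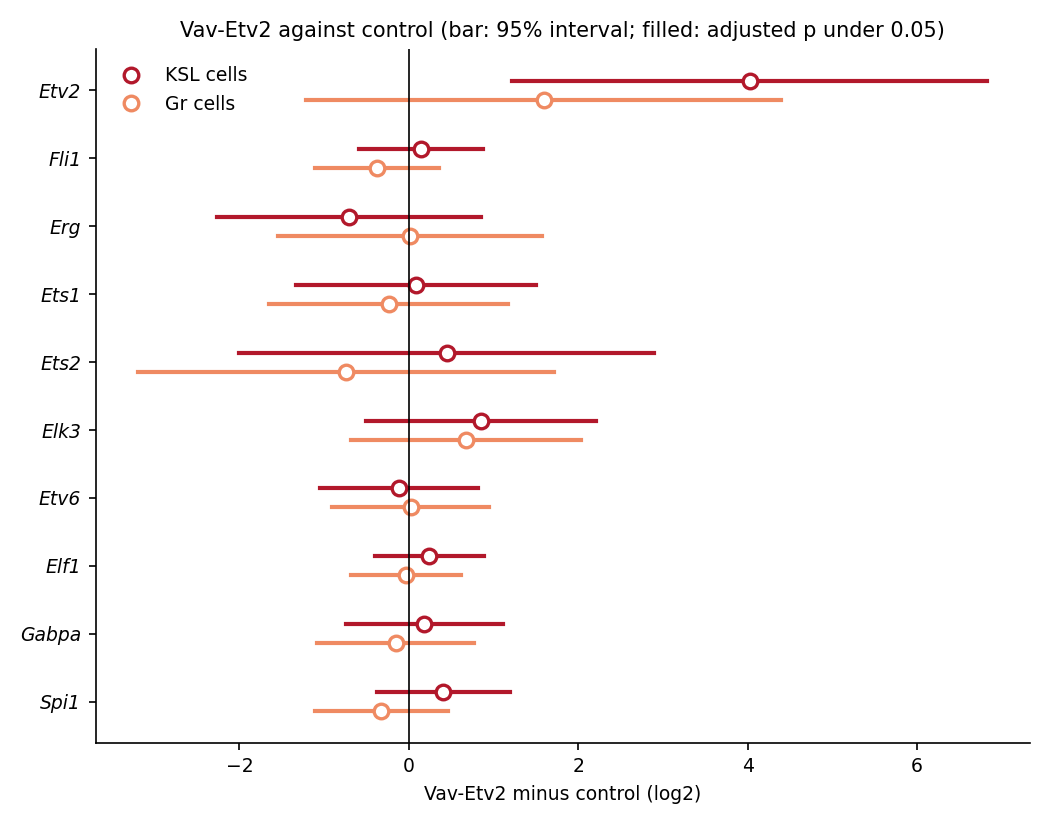
Vav-Etv2 minus control (log2) for the probe that stands for each of the 10 genes, in KSL cells (dark red) above Gr cells (orange), with 95% intervals from limma and open circles where the adjusted p was not under 0.05. All 20 circles are open, and the Etv2 interval in KSL cells runs from 1.22 to 6.83.

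The Gr arrays divided by replicate number more than by genotype. Ets2, a factor downstream of Ras signalling, read 5.77 in Gr Vav-Etv2 1 and 3.26 in Gr Vav-Etv2 2, against 6.53 (Gr control 1) and 3.98 (the array labelled Gr control 2). Replicate 1 exceeded replicate 2 by 2.51 in Gr Vav-Etv2 cells and by 2.55 in Gr controls. Erg showed gaps of 1.59 and 1.47 and Ets1 of 1.46 and 1.05 in the same direction, in Gr Vav-Etv2 and Gr control cells. Elk3 ran the other way, with gaps of -1.21 and -1.25. A gap of at least 1 log2 in the same direction in both genotypes was found for 4 of the 10 genes, and for 13.8% of all probes. In KSL cells it was found for 0 of 10 genes and 0.974% of all probes.

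The same arrays differed in genes of the sex chromosomes. Xist, which is transcribed from the inactive X chromosome, read 0.35 in Gr Vav-Etv2 1 and 0.27 in Gr control 1, but -6.83 in Gr Vav-Etv2 2 and -7.10 in the other array labelled as Gr control. The Y-linked Ddx3y read 1.36 and 1.38 in those 2 arrays. All 4 KSL arrays had Xist between 2.12 and 2.69. Within replicate numbers of Gr cells, the Vav-Etv2 minus control difference of Elk3 was 0.69 and 0.65 and that of Ets2 was -0.76 and -0.72, next to 0.67 and -0.74 under the labels. The part that sex plays in the gaps was not tested.

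**Figure D3:**
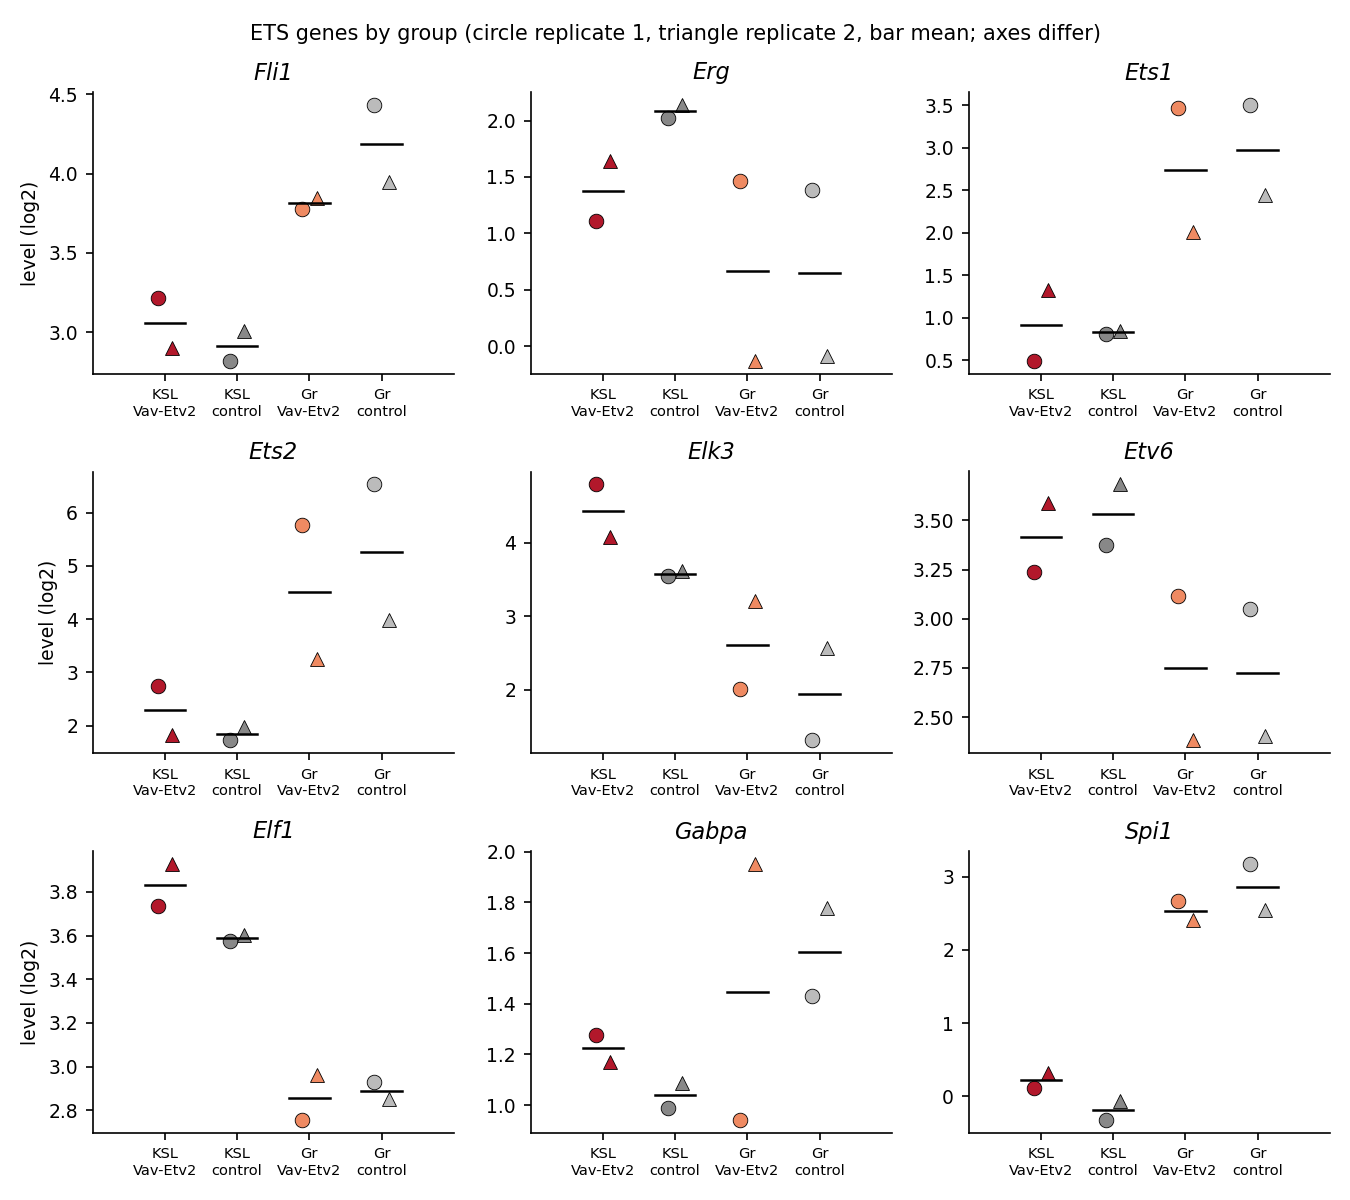
Levels (log2, relative to the 75th percentile of the array) of the 9 ETS genes other than Etv2 in each group, Vav-Etv2 left of control, with circles for replicate 1, triangles for replicate 2 and a bar at the mean of the 2 arrays. In Gr cells the circles and triangles of Ets2 lie 2.51 and 2.55 apart, while Spi1 is above 2.4 on every Gr array and below 0.4 on every KSL array.

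More ETS probes were called between cell types than between genotypes. In KSL against Gr cells, 5 of 17 ETS probes (4 genes) passed in Vav-Etv2 cells, where 24.0% of all probes were called, and 7 of 17 (6 genes) passed in control cells, where 34.1% of all probes were called. Those counts are near the background and say nothing particular about ETS factors. In control cells 5079 of the 11036 probes called were higher in KSL cells, and 3809 of 10834 when arrays were scaled to their median. The median difference over all probes was -0.10 in Vav-Etv2 cells and -0.15 in controls, or -0.24 and -0.32 with median scaling. Taken gene by gene, the difference of each of the 10 ETS genes kept its sign under every scaling tried. The KSL and Gr arrays did not overlap for 69.2% of all probes in Vav-Etv2 cells and 75% in controls, so separation is common here. The 2 comparisons use different arrays but 1 estimate of the spread, and the second shares its control arrays with the genotype comparisons. The second value given for Gr controls is always that of the array labelled Gr control 2.

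Spi1 was the ETS gene with the strongest call. It read 0.12 and 0.31 in KSL Vav-Etv2 cells, against 2.66 and 2.41 in Gr Vav-Etv2 cells, and fell by 2.32 (SE 0.33, limma adjusted p = 0.0055). In controls it read -0.33 and -0.06 in KSL cells, against 3.18 and 2.55 in Gr cells, and fell by 3.06 (SE 0.33, limma adjusted p = 0.0020), or 8.33-fold lower. It passed under all 17 other settings tried in both comparisons, the array labelled Gr control 2 left out included (difference -3.37 in controls, limma adjusted p = 0.0038).

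Fli1, Ets1 and Ets2 were also lower in KSL cells. Fli1 read 2.82 and 3.01 in KSL controls, against 4.43 and 3.95 in Gr controls (difference -1.27, SE 0.31, limma adjusted p = 0.0216). Its call held when the array labelled Gr control 2 was dropped (difference -1.52, limma adjusted p = 0.0182) and was lost when Gr control 1 was (difference -1.03, limma adjusted p = 0.0873). In Vav-Etv2 cells its difference was -0.75 (limma adjusted p = 0.115), so the call was made in controls, and the 2 differences were 0.52 apart with an SE of 0.44 (limma adjusted p = 1.00). Ets1, which is abundant in lymphocytes, read 0.49 and 1.33 in KSL Vav-Etv2 cells, against 3.47 and 2.01 in Gr Vav-Etv2 cells (difference -1.83, SE 0.60, limma adjusted p = 0.0657). In controls it read 0.82 and 0.85 in KSL cells, against 3.50 and 2.45 in Gr cells (difference -2.15, SE 0.60, limma adjusted p = 0.0328), and the call was lost without Gr control 1 (difference -1.62, limma adjusted p = 0.158) but not without the array labelled Gr control 2 (difference -2.67, limma adjusted p = 0.0284). Its second probe, which lacks the run shared with Etv2, passed in both, with -1.84 in Vav-Etv2 cells (limma adjusted p = 0.0303) and -2.54 in controls (limma adjusted p = 0.0086).

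Ets2 read 2.75 and 1.84 in KSL Vav-Etv2 cells, against 5.77 and 3.26 in Gr Vav-Etv2 cells, and 1.72 and 1.97 in KSL controls, against 6.53 and 3.98 in Gr controls. It passed in controls alone (difference -3.41, SE 1.03, limma adjusted p = 0.0426), next to a Vav-Etv2 difference of -2.22 (limma adjusted p = 0.153). The difference between the 2 was 1.19 (SE 1.46, limma adjusted p = 1.00). Its control difference became -4.69 when the array labelled Gr control 2 was dropped (limma adjusted p = 0.0182) and -2.14 when Gr control 1 was (limma adjusted p = 0.203).

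Elk3 and Elf1 lay higher in KSL cells. Elk3 probe 1 read 4.80 and 4.07 in KSL Vav-Etv2 cells, against 2.01 and 3.21 in Gr Vav-Etv2 cells (difference 1.82, limma adjusted p = 0.0589), and 3.55 and 3.61 in KSL controls, against 1.31 and 2.56 in Gr controls (difference 1.64, limma adjusted p = 0.0636). Its probe 2 passed in both, by 1.71 (limma adjusted p = 0.0423) in Vav-Etv2 cells and 1.80 (limma adjusted p = 0.0288) in controls. Elf1, an activator in lymphocytes and other blood cells, read 3.73 and 3.93 in KSL Vav-Etv2 cells, against 2.76 and 2.96 in Gr Vav-Etv2 cells, and rose by 0.97 (SE 0.27, limma adjusted p = 0.0428). In controls its probe 1 difference of 0.70 did not pass (limma adjusted p = 0.0871), and its probe 2 rose by 1.35 (limma adjusted p = 0.0210).

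For 4 genes (Etv2, Erg, Etv6 and Gabpa) no probe passed in either comparison. The control difference of Etv2 was -2.04 (limma adjusted p = 0.214). It turned on the 2 Gr control arrays, with -0.069 when the array labelled Gr control 2 was left out and -4.01 (limma adjusted p = 0.0182) when Gr control 1 was. Erg read 1.11 and 1.64 in KSL Vav-Etv2 cells, against 1.46 and -0.13 in Gr Vav-Etv2 cells, and 2.02 and 2.14 in KSL controls, against 1.38 and -0.09 in Gr controls. Its differences were 0.71 (SE 0.66, limma adjusted p = 0.445) and 1.43 (SE 0.66, limma adjusted p = 0.130), in Vav-Etv2 and control cells, with the Gr arrays 1.59 and 1.47 apart. Etv6, a repressor needed by adult blood stem cells, read 3.24 and 3.59 in KSL Vav-Etv2 cells, against 3.11 and 2.38 in Gr Vav-Etv2 cells, and 3.38 and 3.68 in KSL controls, against 3.05 and 2.40 in Gr controls. Its differences were 0.67 (limma adjusted p = 0.240) and 0.80 (limma adjusted p = 0.149). The Etv6 probe shared a run of 15 bases or more with 29 probes of other genes, and the part of those transcripts in its signal was not tested. Gabpa differed by -0.22 (95% interval -1.15 to 0.71) in Vav-Etv2 cells and -0.56 (95% interval -1.49 to 0.36) in controls.

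Calls other than that of Spi1 depended on the arrays kept. In Vav-Etv2 cells 1 to 6 of the 17 probes passed when 1 array was left out, and in control cells 1 to 8. The 1 left in controls without KSL control 1 or KSL control 2 was Spi1, and 8 passed when the array labelled Gr control 2 was left out.

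**Figure D4:**
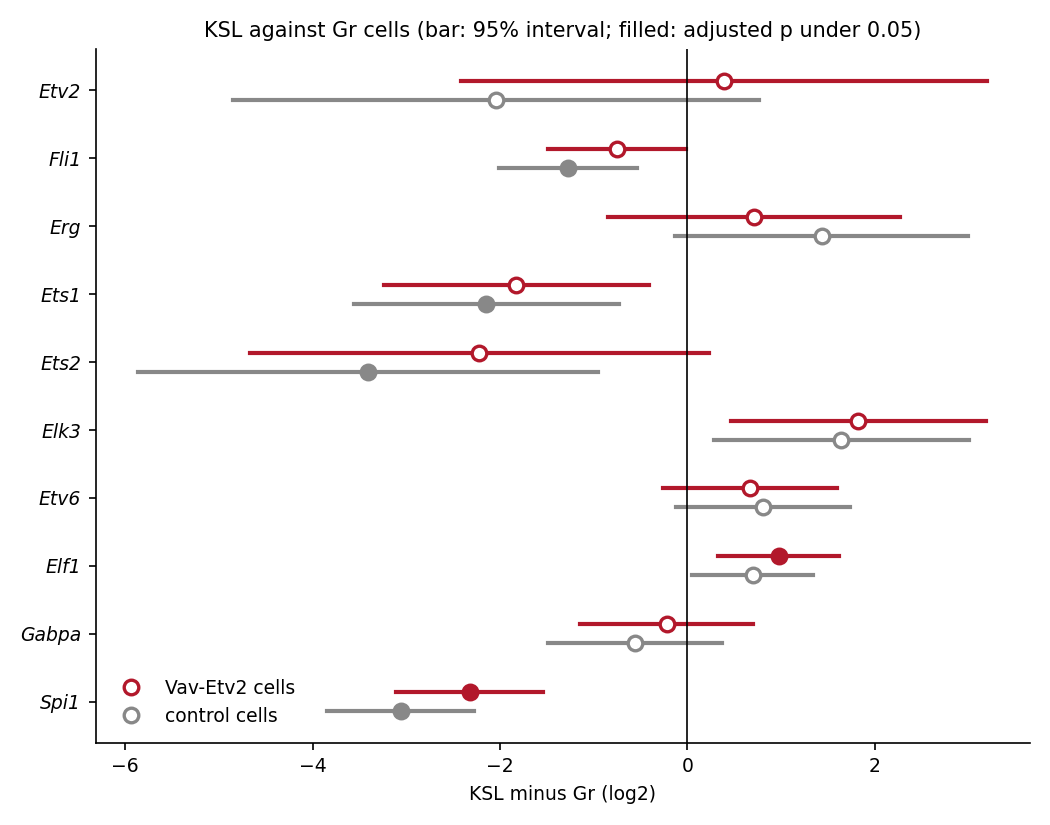
KSL minus Gr (log2) for the probe that stands for each gene, in Vav-Etv2 cells (dark red) above control cells (grey), with 95% intervals from limma, filled where the adjusted p was under 0.05. Filled circles are Elf1 and Spi1 in Vav-Etv2 cells, and Fli1, Ets1, Ets2 and Spi1 in control cells, the last at -3.06.

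By mean level, the order for Spi1, Fli1, Ets1 and Ets2 was Gr control, Gr Vav-Etv2, KSL Vav-Etv2 and KSL control. The 2 Gr groups did not overlap for Fli1 but did for the other 3, and the 2 KSL groups overlapped for Fli1, Ets1 and Ets2. Gabpa had the same order with overlap between all neighbours except the 2 KSL groups. Erg and Etv6 had KSL control first, then KSL Vav-Etv2, Gr Vav-Etv2 and Gr control. Elk3 and Elf1 had KSL Vav-Etv2 first and KSL control second, with no overlap, and their 2 Gr groups overlapped. For Etv2 the order was KSL Vav-Etv2, Gr Vav-Etv2, Gr control and KSL control, with overlap at every step, since the Gr control arrays at -4.48 and -0.55 span most of the range.

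Other members of the ETS family showed no genotype call. Of 17 further family members listed, 13 were measured. In KSL cells 10 had a positive and 3 a negative difference (median 0.11), and in Gr cells 6 and 7 (median -0.02), with 0 called in either. When the array labelled Gr control 2 was left out the Gr counts were 3 and 10 (median -0.49). Between cell types 1 of 13 passed in Vav-Etv2 cells and 2 of 13 in controls, below the 24.0% and 34.1% of all probes. Erf, a repressor, was higher in KSL cells, by 1.44 in Vav-Etv2 cells (limma adjusted p = 0.0468) and 2.31 in controls (limma adjusted p = 0.0083). Elf4 was lower in KSL controls by a difference of -1.63 (limma adjusted p = 0.0317).

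Of the partner factors of ETS proteins 19 were measured. For Vav-Etv2 against control 8 were positive and 11 negative in KSL cells (median -0.06), and 12 and 7 in Gr cells (median 0.11), none called. Without KSL Vav-Etv2 1 the KSL counts were 11 and 8 (median 0.03). In KSL against Gr cells 5 passed in Vav-Etv2 cells and 6 in controls, shares near the 24.0% and 34.1% of all probes. All of these were higher in KSL cells, a direction in which 10.5% of all probes were called in Vav-Etv2 cells and 15.7% in controls. Tal1, Gata1, Mef2c, Lmo2 and Tcf3 passed in both, with Tal1, a stem cell and erythroid factor, at 3.54 and 4.00 in Vav-Etv2 and control cells. Gata2 passed in controls, by 4.35 (limma adjusted p = 0.0447).

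The genes that Etv2 drives in the embryo, most of them endothelial, were measured for 22 of the 25 listed. In KSL cells 16 had a positive and 6 a negative difference (median 0.47, against 0.02 over all probes), and 0 were called. The 3 largest were Cdh5, the adhesion molecule of endothelial junctions, Flt1, a VEGF receptor, and the transcription factor Sox18. Cdh5 read 3.53 and -1.60 in KSL Vav-Etv2 cells, against -3.75 (not well above background) and -3.66 in KSL controls (difference 4.67, SE 1.64, limma adjusted p = 0.598). Flt1 read 3.77 and -1.29, against -2.98 and -2.71 in KSL controls (difference 4.08, SE 1.43, limma adjusted p = 0.596). KSL Vav-Etv2 1 was far above the other arrays for both genes, and it was the array with the highest Etv2. It also had the lowest Gr marker median (2.47). The part that Etv2 plays in the Cdh5 and Flt1 values was not tested.

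Without KSL Vav-Etv2 1, 12 of the 22 were positive and the median was 0.08. In Gr cells 17 were positive and 5 negative (median 0.35), 0 called. Ecscr and Tek, both counted as positive, were not well above background on any Gr array, and Esam on Gr Vav-Etv2 1 alone. The signs and the median therefore rest in part on values not above background. The 3 genes with the largest values there, Tie1, Cdh5 and Sox18, were partly not above background. Tie1 read -1.12 and -3.25 in Gr Vav-Etv2 cells, against -5.99 (Gr control 1, not above background) and -3.43 (the array labelled Gr control 2). Cdh5 and Sox18 were well above background in Gr Vav-Etv2 1 alone of the 4 Gr arrays, so no fold is given for either. When the array labelled Gr control 2 was left out the counts of positive and negative genes were 19 and 3 (median 0.49). Between cell types 12 of the 22 were called higher in KSL cells and 1, Lmo1, lower, both in Vav-Etv2 and in control cells, next to 10.5% and 15.7% of all probes called higher. Those 12 include Tal1, Lmo2 and Mef2c, and in controls Gata2, which are also counted among the partner factors.

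Of the 14 endothelial markers measured, 10 are also on the target list, so the lists are not independent. Their median was 3.10 and -0.45 in KSL Vav-Etv2 1 and 2, against -0.76 and -0.88 in KSL controls. In Gr cells 10 and 7 of the 14 were well above background in Vav-Etv2 1 and 2, against 5 (Gr control 1) and 7 (the array labelled Gr control 2), so no Gr medians are compared for this list. In KSL cells 13 of 14 had a positive difference (median 1.64), or 9 of 14 (median 0.72) without KSL Vav-Etv2 1.

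Other marker lists had uneven signs for Vav-Etv2 against control in KSL cells. B lineage markers, 9 of 9 positive (median 2.42), had medians of 1.96 and 2.62 in KSL Vav-Etv2 cells, against -0.69 and -0.51 in KSL controls, and remained 9 of 9 positive (median 2.86) without KSL Vav-Etv2 1. Monocyte and macrophage markers were positive in 8 of 9 (median 0.51), or 9 of 9 (median 0.89) without that array. KSL markers were negative in 10 of 11 (median -0.95), or 9 of 11 (median -0.54) without it. Gr markers were negative in 11 of 12 (median -1.78), and without it 10 of 12 were positive (median 0.10). T and NK markers were negative in 8 of 10, erythroid in 6 of 7, mast and basophil in 6 of 7 and megakaryocyte in 2 of 5. Without KSL Vav-Etv2 1 they were negative in 8 of 10, 6 of 7, 3 of 7 and 4 of 5, in the same order. In Gr cells B lineage markers were positive in 9 of 9 (median 0.73), or 9 of 9 (median 0.30) without the array labelled Gr control 2. Mast and basophil markers were negative there in 7 of 7 (median -1.30), or 3 of 7 without that array. T and NK markers were negative in 9 of 10 either way, Gr markers in 10 of 12 or 12 of 12, and erythroid in 6 of 7 or 7 of 7. Monocyte and macrophage markers were positive in 7 of 9 or 5 of 9, KSL in 8 of 11 or 6 of 11, and megakaryocyte in 3 of 5 or 2 of 5. None of these genes passed the test, and the part that such cells play in the Etv2 and Elk3 levels was not tested.

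All 20 listed targets of Spi1 in myeloid cells were measured, with Itgam and Csf3r also on the Gr marker list. In KSL cells 9 were positive and 11 negative for Vav-Etv2 against control (median -0.05), and in Gr cells 8 and 12 (median -0.03), 0 called. When the array labelled Gr control 2 was left out the Gr counts were 6 and 14 (median -0.48). Without KSL Vav-Etv2 1, 17 of the 20 were positive in KSL cells (median 0.35), 0 called. In KSL against Gr cells 18 were negative and 2 positive, in Vav-Etv2 cells and in controls alike. Of these, 15 were called lower in each, next to 13.5% and 18.4% of all probes. Called higher was 1 in each, next to 10.5% and 15.7% of all probes. Lyz2, the lysozyme of granulocytes and macrophages, fell by 5.23 in Vav-Etv2 cells (limma adjusted p = 0.0031) and fell by 5.55 in controls (limma adjusted p = 0.0019). Il7r, the interleukin 7 receptor of lymphoid cells, rose by 4.61 and 4.16.

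**Figure D5:**
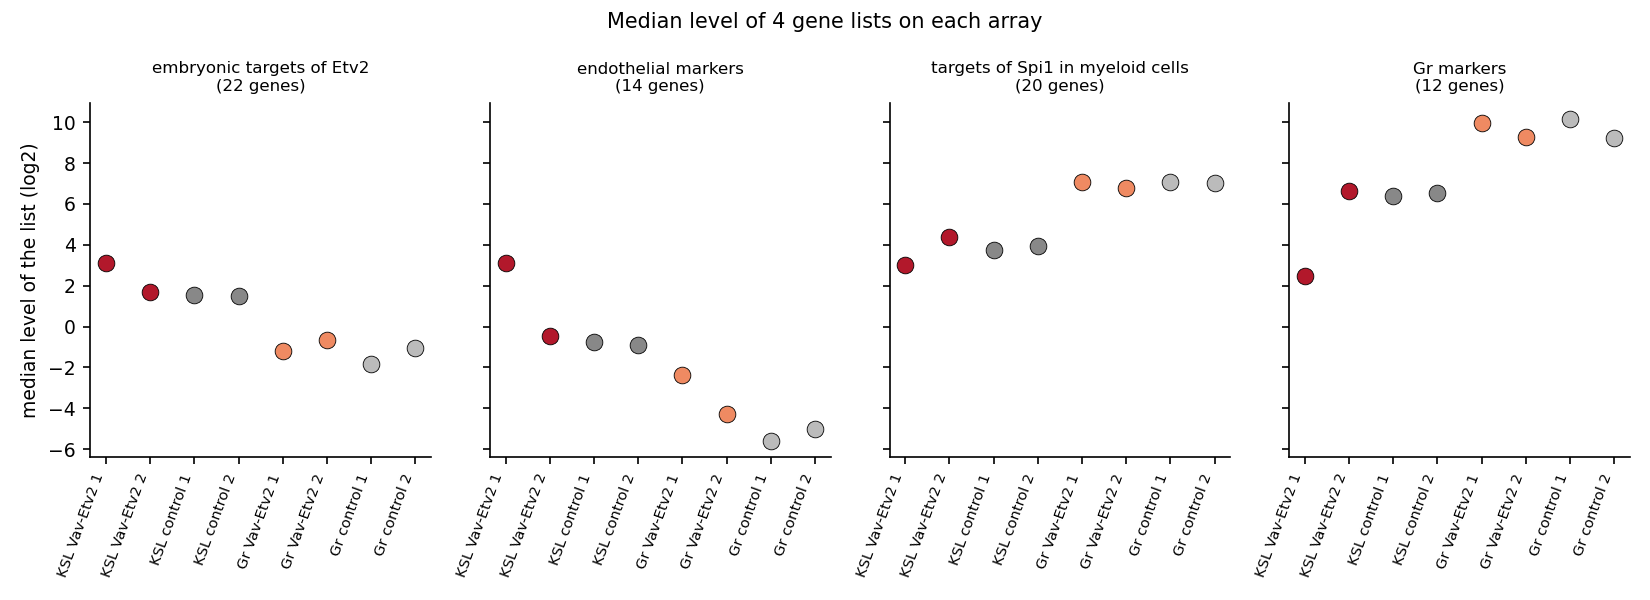
Median level (log2, relative to the 75th percentile of the array) on each array of the embryonic targets of Etv2, endothelial markers, myeloid targets of Spi1 and Gr markers, Vav-Etv2 arrays left of the controls of the same cell type. KSL Vav-Etv2 1 has the highest endothelial median (3.10) and the lowest Gr marker median (2.47) of the 8 arrays.

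The genes most like Etv2, Erg and Spi1 in level were sought by Pearson's r over the 8 arrays, among 8329 named genes whose levels spanned at least 2 log2. The arrays share cell type and replicate number, and r is a description only. Most like Etv2 were Rtn1 (r = 0.926), Kifc3 (0.920), Igf2bp3 (0.906) and Myo7a (0.893). Most like Erg were Clip2 (0.975), Ephx1 (0.962), Tssk5 (0.960), Smpd3 (0.958) and Etv5 (0.956), itself an ETS gene with 1.94 and -0.29 in Gr Vav-Etv2 1 and 2, against 1.56 (Gr control 1) and 0.03 (the array labelled Gr control 2). Most like Spi1 were Actr3, Fes, Atp7a, Atrn and Aoah, with r from 0.9975 to 0.9984.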

How the data were processed

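Total RNA of FACS-sorted cells was labelled with Cy3 after low-input amplification and hybridised to 8 single-colour Agilent arrays on 1 slide, per the labels' protocols. Per the file headers, the deposited signal is a fluorescence intensity that the authors extracted with version 10.7.3.1 of Agilent Feature Extraction (the submitters' processing notes give 10.7), corrected for background and not scaled between arrays. Other deposited columns are quality marks of 0 or 1 (well above background, outlier, saturated, control). The deposited value table holds log2 values. Of these, 99.8% lay within 0.01 log2 of signals scaled per array and centred on each probe's median within a cell type, so it served only as an alternative within a cell type. Its centring makes the direction of levels between cell types unknown there, and its column medians ran from -0.26 to 0.29.

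Spots marked as non-uniform were removed and spots of a probe averaged. Each array's 75th percentile was subtracted on the log2 scale (R 4.3.3). Probes well above background on at least 2 of 8 arrays were fitted with limma 3.58.1 (lmFit, eBayes), 1 coefficient per group, with Benjamini-Hochberg adjustment over all 32354 probes and a threshold of 0.05. Fits were tested on simulated data. For a gene, the probe with the highest mean over 8 arrays was named, then from each list the 3 largest differences and genes past the threshold, and the 5 genes most like Etv2, Erg and Spi1, of which 1 is not reported here. The number of arrays limits the precision. The members, lists and rules were chosen with earlier results of these data known. Alternatives changed background correction, scaling, filter, probes per gene, floor, arrays fitted and replicate block, and left out each array in turn. Coordinates and sequences are those of the array files (build mm9).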

Additional observations from a re-analysis of the deposited data

How the results depend on the processing

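No ETS probe passed for Vav-Etv2 against control, in either cell type, under any alternative tried, and Spi1 passed in both cell type comparisons under all of them. The counts over all probes moved. In KSL cells the 3 probes called for Vav-Etv2 against control became 18 with normexp background correction, 23 with median scaling, 45 with quantile normalization, 0 with only probes well above background on all 8 arrays, 9 with a floor at the lowest well-above-background signal, 7 with only the 2 groups fitted, and 0 to 16 without 1 array. In Gr cells the 1 call became 0 with normexp, 2 with median scaling, 2 with quantile normalization, 0 with probes well above background on all arrays, 2 with 1 probe per gene name, 0 with only the 2 groups fitted and 0 to 3 without 1 array. For the difference of the effects the 1 call became 6 with normexp, 2 with median scaling, 4 with quantile normalization, and 0 with no filter, with the stricter filter, with the floor, with the replicate block and without any 1 array.

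For KSL against Gr, the Vav-Etv2 count of 7756 became 5107 with no filter and 2978 to 9807 without 1 array, and the control count of 11036 became 7340 and 3325 to 12730. ETS probes called in Vav-Etv2 cells were 3 with median scaling, 1 with no filter, 2 with 1 probe per gene name, 1 with only the 2 groups fitted and 1 to 6 without 1 array, against 5. In controls they were 2 with no filter, 4 with 1 probe per gene name and 1 to 8 without 1 array, against 7. Fewer probes are tested with 1 probe per gene name. The causes of the other changes were not tested.

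Only 2 replicate numbers exist per cell type, and the main fits did not use them. The labels do not tell whether arrays of the same number were paired. A gap shared by same-numbered Gr arrays therefore counts as spread in the SEs, intervals and p of the main fits. Deviations of same-numbered arrays correlated by 0.06 in KSL cells and 0.65 in Gr cells. A replicate block within each cell type gave 14482 probes (10 of the ETS probes) in Vav-Etv2 cells and 16862 (13) in controls, and 2 in KSL and 1 in Gr cells for Vav-Etv2 against control.

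Signs turned when 1 array was left out. For Vav-Etv2 against control in KSL cells the range was -0.014 to 0.30 for Fli1, -0.34 to 0.50 for Ets1, -0.011 to 0.90 for Ets2 and -0.29 to 0.059 for Etv6. In Gr cells it was -0.38 to 3.56 for Etv2, -0.78 to 0.81 for Erg, -0.96 to 0.49 for Ets1, -2.02 to 0.53 for Ets2, -0.35 to 0.39 for Etv6, -0.13 to 0.071 for Elf1 and -0.66 to 0.35 for Gabpa. Etv6 also turned to -0.012 with normexp. For KSL against Gr in Vav-Etv2 cells it was -0.32 to 1.11 for Etv2, -0.087 to 1.51 for Erg and -0.73 to 0.28 for Gabpa. The lists were recomputed without KSL Vav-Etv2 1 and without the array labelled Gr control 2, a choice made after seeing the data. Leaving out 1 Gr array sets 2 replicate numbers against 1. The Gr ranges and the Gr list counts without an array therefore include the gap between replicate numbers. Etv2 in the KSL controls and in Gr control 1 is limited by background, so its fold changes against those arrays are bounds. In the array labelled Gr control 2 it is not.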
